A study of Mus musculus with 11 samples.

Results

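The heat shock chaperones of the cytosol and the mitochondria were followed in mouse pancreas after injections of caerulein. They are given by 41 gene symbols: heat shock factors, the HSP70, HSP110 and HSP90 families, HSP90 co-chaperones, small heat shock proteins, mitochondrial HSP60 and HSP10, J-proteins, BAG proteins and the subunits of the chaperonin TRiC. A gene was measured where a probe set carried its symbol and no other, and where a gene had several such probe sets the brightest by its mean over the 11 arrays was taken. This left 38 of the 41 symbols, among 19938 genes on the array. Hsf1 and Hsp90ab1 were not analysed here, and Hspa1b was found only in a probe set that also carries Hspa1a.

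The arrays measured total RNA of whole pancreas from wild-type C57Bl6J mice. Caerulein, a peptide that acts on the cholecystokinin receptor of acinar cells and is used to bring on experimental acute pancreatitis, was given intraperitoneally as 9 hourly injections, at a dose that the series text writes as 50 mg/kg (6 mice in that text, 6 arrays). The unit could not be checked and may be a typing error, since caerulein is usually dosed in micrograms per kilogram. Controls received sodium chloride (NaCl), for which the series text counts 4 mice and the sample titles name 5 samples, all of them used. Ages and the time of tissue collection were not given. The labels do not tie each sample to a separate mouse, so the p-values rest on how much these samples differ among themselves, which may be technical.

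The pancreatic label was checked on 14 acinar markers, whose mean log2 value lay between 12.4 and 12.6 in the NaCl arrays and between 11.8 and 11.9 in the caerulein arrays. Arrays correlated at 0.981 to 0.991 within a group and at 0.938 to 0.955 between groups, so each array was closer to its own group. Array medians lay between 5.35 and 5.40 in the NaCl arrays and between 5.2 and 5.25 in the caerulein arrays. The median difference of all genes was -0.13 on the log2 scale, so a member near that value moved with the bulk of the array.

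Heat shock chaperones bind proteins that are not, or no longer, folded. Heat shock factor 1 is held inactive by chaperones in unstressed cells. When unfolded protein draws the chaperones away, the factor forms trimers, binds arrays of the sequence unit nGAAn in promoters (heat shock elements) and drives transcription of the chaperone genes. J-proteins hand clients to HSP70 and start its ATP cycle, HSP110 and BAG proteins release its nucleotide, and HSP90 with its co-chaperones takes over clients that are nearly folded. Small heat shock proteins hold unfolded clients without ATP, HSP60 with HSP10 folds proteins imported into mitochondria, and TRiC folds actin and tubulin. Acinar cells make large amounts of secreted enzymes, which fold in the endoplasmic reticulum (ER) with a separate set of chaperones.

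Of the 38 genes, 28 were higher after caerulein, 5 were lower and 5 did not pass the test (limma, Benjamini-Hochberg over all 35556 probe sets, adjusted p under 0.05). Over all 19938 genes the shares were 20.3% higher and 34.3% lower. At least 2-fold higher were 18 members, against 6.14% of all genes, and 0 members were at least 2-fold lower, against 1.44% of all genes. All caerulein values were above all NaCl values for 28 members, against 16.7% of all genes, and below for 2, Fkbp4 and Dnajb4, against 20.6%. The members' median difference was 0.80, with a range of -0.79 to 3.16. Most members were bright, and 37 of them lay outside the dimmer 50% of probe sets. Counted there with the p-values of the full array, 27 were higher, against 32.5% of the 11769 genes, and 5 were lower, against 36.0%. When the dimmer probe sets were left out of the fit as well, 6 were lower, with Bag1 added (-0.22, adjusted p = 0.0445, limma).

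**Figure D1:**
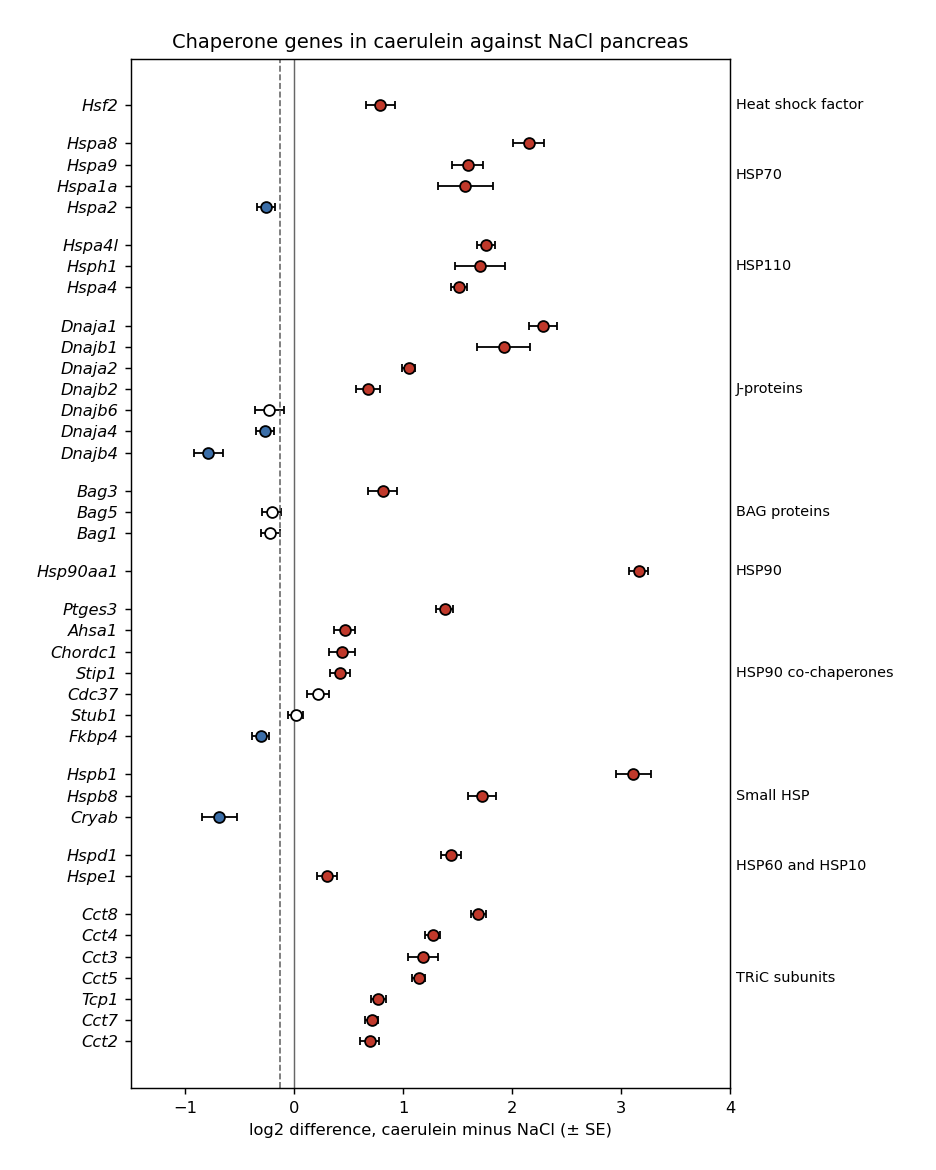
Differences of the 38 chaperone genes, caerulein minus NaCl on the log2 scale, with the standard error of the fit, ordered by class. Red and blue points passed the test as higher and lower, open points did not, and the dashed line is the median of all genes. Hsp90aa1 and Hspb1 lie farthest to the right at 3.16 and 3.11, TRiC subunits all lie above 0, and Dnajb4 lies lowest at -0.79.

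The count depended on how arrays were scaled. When the mean of 12 genes commonly used as references was set equal in every array, each difference moved down by 0.76, the median of all genes moved to -0.89, and 18 members were higher and 14 lower. Of all 19938 genes, 1189 were then higher and 17237 lower. In that list 7 of the 12 genes were themselves higher after caerulein in the deposited values and 0 were lower. RNA from whole tissue was measured, so fewer cells of a type and less RNA per cell cannot be told apart. Among markers of other cells, the means of duct and macrophage markers rose with the groups. The means of islet, neutrophil, endothelial, and stellate cell and fibroblast markers overlapped between the groups. The lymphocyte mean was 5.11 to 5.25 in the NaCl arrays and 4.89 to 5.11 in the caerulein arrays, with 1 higher and 6 lower. The mean of 8 duct markers went from 6.77 to 6.98 in the NaCl arrays to 8.36 to 8.66 in the caerulein arrays. Of the 8, 5 were higher and 2 lower. Cldn4 (5.76) and Krt19 (4.39) rose most, Muc1 (-1.14) and Onecut1 (-0.66) fell, and Sox9 (0.41) did not pass. The mean of 15 macrophage markers went from 5.63 to 5.74 to 6.07 to 6.87, with 8 higher and 1 lower. Their part in the chaperone values was not tested.

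Promoter letters were available from RefSeq (GRCm38.p6, from 250 bases before to 50 bases after the start site) for 33 of the 38 members. They were searched on both strands for alternating units of a heat shock element, as 3 units (GAANNTTCNNGAA or TTCNNGAANNTTC) and as 2 units (GAANNTTC or TTCNNGAA, which lie inside the longer forms). The 3-unit element was found in 5 of 33 members (15.2%), Hsph1, Chordc1, Hspd1, Hspe1 and Dnajb6, against 0.662% of 27025 genes. At least the 2-unit element was found in 17 of 33 members (51.5%), against 17.0% of all genes. A match describes letters and not a bound site.

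The stretches below are shown for genes with a 3-unit element and for the inducible genes Hspb1 and Hspa1a. They are given 5′ to 3′ on the gene's strand with the elements in capitals. Hspd1 and Hspe1 lie head to head with 215 bases between their start sites, so the stretch shown for Hspe1 is the whole of the space between them and serves both genes.
Hspe1, chr1:55087933-55088147, plus strand: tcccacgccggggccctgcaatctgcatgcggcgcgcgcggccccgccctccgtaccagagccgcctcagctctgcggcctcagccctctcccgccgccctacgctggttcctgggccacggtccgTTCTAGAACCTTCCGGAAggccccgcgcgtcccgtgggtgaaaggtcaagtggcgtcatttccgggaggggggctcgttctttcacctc
Chordc1, chr9:18292017-18292285, plus strand: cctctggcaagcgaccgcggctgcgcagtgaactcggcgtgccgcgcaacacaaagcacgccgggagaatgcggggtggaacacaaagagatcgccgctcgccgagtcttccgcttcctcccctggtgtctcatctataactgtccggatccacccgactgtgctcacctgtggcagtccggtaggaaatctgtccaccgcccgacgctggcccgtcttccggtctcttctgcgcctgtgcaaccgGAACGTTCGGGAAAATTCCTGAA
Dnajb6, chr5:29735648-29735897, plus strand: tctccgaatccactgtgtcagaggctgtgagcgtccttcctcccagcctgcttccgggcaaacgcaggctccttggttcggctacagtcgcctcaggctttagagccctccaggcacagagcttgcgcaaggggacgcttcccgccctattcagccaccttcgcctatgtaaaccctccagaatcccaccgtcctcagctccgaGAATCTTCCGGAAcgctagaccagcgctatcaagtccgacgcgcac
Hsph1, chr5:149636337-149636586, minus strand: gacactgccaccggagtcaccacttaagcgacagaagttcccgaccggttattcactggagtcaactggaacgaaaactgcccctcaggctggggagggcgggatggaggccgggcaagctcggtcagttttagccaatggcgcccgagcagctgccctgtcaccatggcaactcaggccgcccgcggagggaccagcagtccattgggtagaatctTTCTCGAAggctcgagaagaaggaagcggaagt
Hspb1, chr5:135887669-135887918, plus strand: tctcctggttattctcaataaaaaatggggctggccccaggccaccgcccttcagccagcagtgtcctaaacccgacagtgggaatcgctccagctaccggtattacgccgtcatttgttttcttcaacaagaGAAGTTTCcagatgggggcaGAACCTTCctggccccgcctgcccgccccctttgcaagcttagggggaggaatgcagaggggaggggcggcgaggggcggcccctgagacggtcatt
Hspa1a, chr17:34972157-34972406, minus strand: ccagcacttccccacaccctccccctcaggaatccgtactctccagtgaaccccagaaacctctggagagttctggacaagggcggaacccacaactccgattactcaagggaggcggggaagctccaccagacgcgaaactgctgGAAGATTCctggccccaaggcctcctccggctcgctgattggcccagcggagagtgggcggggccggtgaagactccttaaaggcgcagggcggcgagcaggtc

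The element between Hspd1 and Hspe1 is 18 bases long with 4 units and lies 89 to 72 bases before the start of Hspe1. The Chordc1 element is 23 bases long with 5 units and runs from 4 bases before the start to 19 after it. In Dnajb6 the 3 units lie 46 to 34 bases before the start. Hsph1 has 2 units 33 to 26 bases before its start, and its 3-unit element, TTCTGGAAAGTTC, lies 37 to 49 bases after it, outside the stretch shown. Hspb1 carries a pair of 2-unit elements, 117 to 110 and 97 to 90 bases before the start. Hspa1a carries 2 units 104 to 97 bases before it. Hspa8, Hspa9, Hsp90aa1, Cryab and Cct4 had no window and are not in the following comparison, which therefore leaves out the member with the largest difference, Hsp90aa1. Only exact letters inside the window were counted, so an imperfect or more distant element was scored as absent. Hspd1 and Hspe1 share the same element, and both count among the 5 genes with 3 units. Among the 33 genes with a window, the medians were not larger with the longer element. The part of heat shock elements in these differences was not tested. The 5 genes with 3 units had a median difference of 0.44 (range -0.23 to 1.70), the 12 with 2 units only had 0.75 (-0.79 to 3.11), and the 16 with neither had 0.78 (-0.26 to 1.92). Among those groups, 4 of 5, 7 of 12 and 13 of 16 genes were higher after caerulein.

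**Figure D2:**
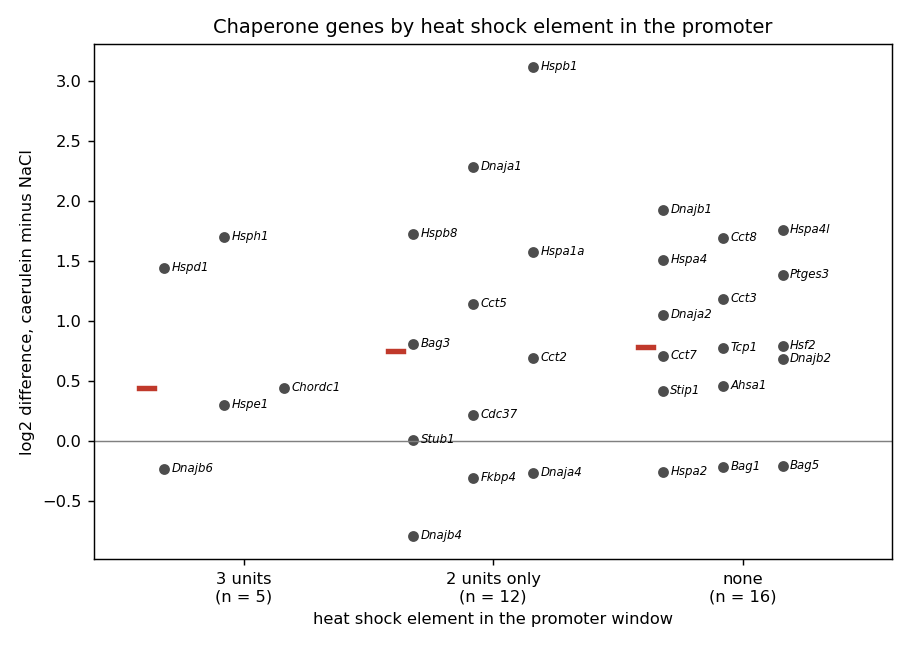
Differences (caerulein minus NaCl, log2) of the 33 chaperone genes with a promoter window, by the heat shock element found in it. Each point is a gene and the red bar at the left of each column is the median, which lies at 0.44, 0.75 and 0.78 from left to right.

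The heat shock factor that was measured, Hsf2, a relative of heat shock factor 1 with roles in development and stress, rose 1.73-fold. Its log2 values were 4.53, 4.70, 4.74, 5.04 and 4.94 in the NaCl arrays, and 5.27 at the lowest, 5.60 at the median and 5.85 at the highest in the caerulein arrays. The groups did not overlap (difference 0.79, SE 0.13, adjusted p = 2.6e-04, limma). With the reference genes set equal, the difference was 0.03 and did not pass (adjusted p = 0.833). Hsf4, a heat shock factor outside the members, was lower (-0.37, adjusted p = 6.2e-04, limma).

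Most HSP70 and HSP110 genes among the members rose. Of 7 measured there, with mitochondrial Hspa9 among them, 6 rose by at least 2-fold, against 6.14% of all genes. The other, Hspa2, fell, and the median difference was 1.59. With the reference genes set equal, 6 were also higher. Outside the members, the HSP70 relatives Hspa13 (-1.52) and Hspa12a (-0.32) were lower, and Hspa1l, Hspa12b and Hspa14 did not pass. Hspa8 encodes the constitutive cytosolic HSP70 that serves most folding in unstressed cells. Its values were 10.68, 10.49, 10.18, 10.18 and 10.08 in the NaCl arrays, and ran from 12.18 through a median of 12.45 to 12.74 in the caerulein arrays. The lowest caerulein array was above the highest NaCl array by a wide gap (difference 2.15, SE 0.14, 4.44-fold, adjusted p = 6.1e-08, limma). Its other 2 probe sets gave 2.22 and 2.27.

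Hspa1a encodes the stress-inducible cytosolic HSP70, and its near-identical copy Hspa1b may share its probes. Its values were 5.91, 6.35, 6.62, 6.45 and 6.18 in the NaCl arrays, and 6.97 at the lowest, 7.91 at the median and 8.62 at the highest in the caerulein arrays. The groups did not overlap, and the caerulein arrays spread more widely than for Hspa8 (difference 1.57, SE 0.25, 2.98-fold, adjusted p = 2.5e-04, limma). Hspa2, an HSP70 best known from male germ cells, read 5.90, 5.90, 5.99, 5.88 and 6.20 in the NaCl arrays and from 5.61 to 5.89 in the caerulein arrays. The groups touched, and the fall was small (difference -0.26, adjusted p = 0.0189, limma). After a second quantile normalisation it did not pass (-0.16, adjusted p = 0.14).

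The HSP110 relatives act as nucleotide exchange factors of HSP70. Hspa4l read 5.92, 5.63, 5.86, 5.79 and 5.77 in the NaCl arrays, with a lowest value of 7.31, a median of 7.59 and a highest of 7.70 in the caerulein arrays. Hspa4 read 7.37, 7.25, 7.13, 7.29 and 7.18, against a lowest of 8.63, a median of 8.74 and a highest of 8.89. For both genes the arrays of a group lay close together and the groups far apart (differences 1.76 and 1.51, adjusted p = 5.2e-09 and 2.6e-09, limma). Hsph1, the heat-inducible member, had a wide spread among the NaCl arrays, at 7.30, 6.98, 6.13, 6.25 and 6.36, and ran from 7.68 through 8.31 to 8.66 after caerulein. Replicates 1 and 2 of the NaCl group were its high controls, still below the lowest caerulein array (difference 1.70, SE 0.23, adjusted p = 5.9e-05, limma).

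J-proteins choose the clients of HSP70. Of 7 members measured, 4 rose, 2 fell and 1 did not pass, with a median difference of 0.68. The shares over all genes were 20.3% higher and 34.3% lower. With the reference genes set equal, 3 of the 7 were higher and 3 lower, and Dnajb2 moved to -0.07. The 20 other J-proteins described below had a median difference of 0.07, with 7 higher and 5 lower. Dnaja1, a cytosolic partner of Hspa8, read 7.42, 7.32, 7.0, 7.14 and 7.10 in the NaCl arrays, and 9.07, 9.47 and 9.88 as the lowest, median and highest caerulein values. The groups lay far apart (difference 2.28, SE 0.13, 4.85-fold, adjusted p = 1.8e-08, limma), although the gene's second probe set gave a smaller difference of 0.84. Dnajb1, the heat-inducible partner known as HSP40, read 6.33, 5.87, 5.78, 5.92 and 5.93 in the NaCl arrays, and 7.27, 7.91 and 8.47 as the lowest, median and highest after caerulein. Every caerulein array was higher (difference 1.92, SE 0.24, 3.79-fold, adjusted p = 2.8e-05, limma).

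Dnaja2, another cytosolic A-type J-protein, rose 2.07-fold (difference 1.05, SE 0.06, adjusted p = 2.2e-08, limma). Its arrays were tight, between 7.56 and 7.71 for NaCl and between 8.61 and 8.78 for caerulein. Dnajb2, which also binds ubiquitin chains, rose 1.61-fold (difference 0.68, adjusted p = 2.2e-04, limma). Dnajb4 fell: it read 5.73, 5.72, 5.64, 6.14 and 5.64 in the NaCl arrays, and 4.66, 5.04 and 5.24 as the lowest, median and highest caerulein values. The groups did not overlap (difference -0.79, SE 0.13, adjusted p = 2.7e-04, limma). Dnaja4 fell slightly with overlapping groups (difference -0.27, adjusted p = 0.015, limma). It did not pass without caerulein replicates 1 to 3 (adjusted p = 0.0516) or without replicates 4 to 6 (0.0697). Dnajb6, which keeps aggregation-prone proteins soluble, had a difference of -0.23 that did not pass (adjusted p = 0.17).

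BAG proteins bind the ATPase domain of HSP70. Of 3 members measured, 1 passed, as higher, where 20.3% of all genes were higher and 34.3% lower. Among BAG genes outside the members, Bag4 was lower (-0.31), Bag6 was higher (0.20) and Bag2 did not pass (-0.08). Bag3, the stress-inducible member that works with small heat shock proteins in selective autophagy, read 6.91, 6.98, 6.97, 6.75 and 6.89 in the NaCl arrays, and 7.40, 7.69 and 8.21 as the lowest, median and highest after caerulein. It rose 1.76-fold without overlap (difference 0.81, SE 0.13, adjusted p = 2.3e-04, limma), but had a difference of 0.06 with the reference genes set equal. Bag1 had a difference of -0.22 (adjusted p = 0.0654) and Bag5 one of -0.21 (adjusted p = 0.0748).

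Hsp90aa1, the stress-inducible cytosolic HSP90, had the largest difference of all members. It read 8.75, 8.47, 8.47, 8.47 and 8.37 in the NaCl arrays, and 11.42, 11.67 and 11.84 as the lowest, median and highest caerulein values. No array of either group came near the other group (difference 3.16, SE 0.09, 8.96-fold, adjusted p = 5.3e-11, limma). Its other 2 probe sets gave 3.09 and 3.12.

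The HSP90 co-chaperones moved far less. Of 7 members measured, 4 rose, 1 fell and 2 did not pass, with a median difference of 0.42. The shares over all genes were 20.3% higher and 34.3% lower. With the reference genes set equal, 1 of the 7 was higher and 6 were lower. Ptges3, the p23 protein that stabilises the closed form of HSP90, read 9.01, 8.87, 8.79, 8.88 and 8.60 in the NaCl arrays, and 10.10, 10.19 and 10.36 as the lowest, median and highest after caerulein. It alone of the 7 passed 2-fold (difference 1.38, SE 0.08, 2.6-fold, adjusted p = 3.2e-08, limma), and its other 2 probe sets gave 1.35 and 1.02.

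Ahsa1, which activates the ATPase of HSP90, rose 1.37-fold (adjusted p = 0.00266). Stip1, also called HOP, links HSP70 to HSP90 and rose 1.34-fold (adjusted p = 0.00174). Chordc1, whose promoter holds the 5-unit element shown above, rose 1.36-fold (adjusted p = 0.0103). These 3 changes turned to -0.30, -0.34 and -0.31 with the reference genes set equal, and Ahsa1 and Stip1 did not pass after quantile normalisation (0.18 and 0.20). Fkbp4, a peptidyl-prolyl isomerase that works with HSP90 on steroid receptors, read 8.63, 8.40, 8.34, 8.38 and 8.21 in the NaCl arrays, and 7.93, 8.10 and 8.17 as the lowest, median and highest caerulein values. It fell without overlap (difference -0.31, SE 0.08, adjusted p = 0.00656, limma). Cdc37, which brings kinases to HSP90, and Stub1, the ubiquitin ligase CHIP, had differences of 0.22 (adjusted p = 0.0836) and 0.01 (adjusted p = 0.921).

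The small heat shock proteins did not move one way. Hspb1, or HSP27, read 7.15, 7.49, 6.72, 6.98 and 6.87 in the NaCl arrays, and 9.77, 10.17 and 10.57 as the lowest, median and highest after caerulein. The groups were far apart (difference 3.11, SE 0.16, 8.66-fold, adjusted p = 1.1e-08, limma), and the gene's second probe set gave 3.07. Hspb8, the partner of Bag3, read 6.71, 6.75, 6.65, 6.84 and 6.62 in the NaCl arrays, and 7.87, 8.51 and 8.67 after caerulein, with replicate 5 the low array. It rose 3.30-fold (difference 1.72, SE 0.13, adjusted p = 2.5e-07, limma). Cryab, which encodes alpha-B-crystallin, fell: it read 8.45, 8.09, 8.30, 8.40 and 8.53 in the NaCl arrays, and 7.22, 7.65 and 8.13 as the lowest, median and highest caerulein values. The highest caerulein array overlapped the lowest NaCl array (difference -0.69, SE 0.16, adjusted p = 0.00333, limma).

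**Figure D3:**
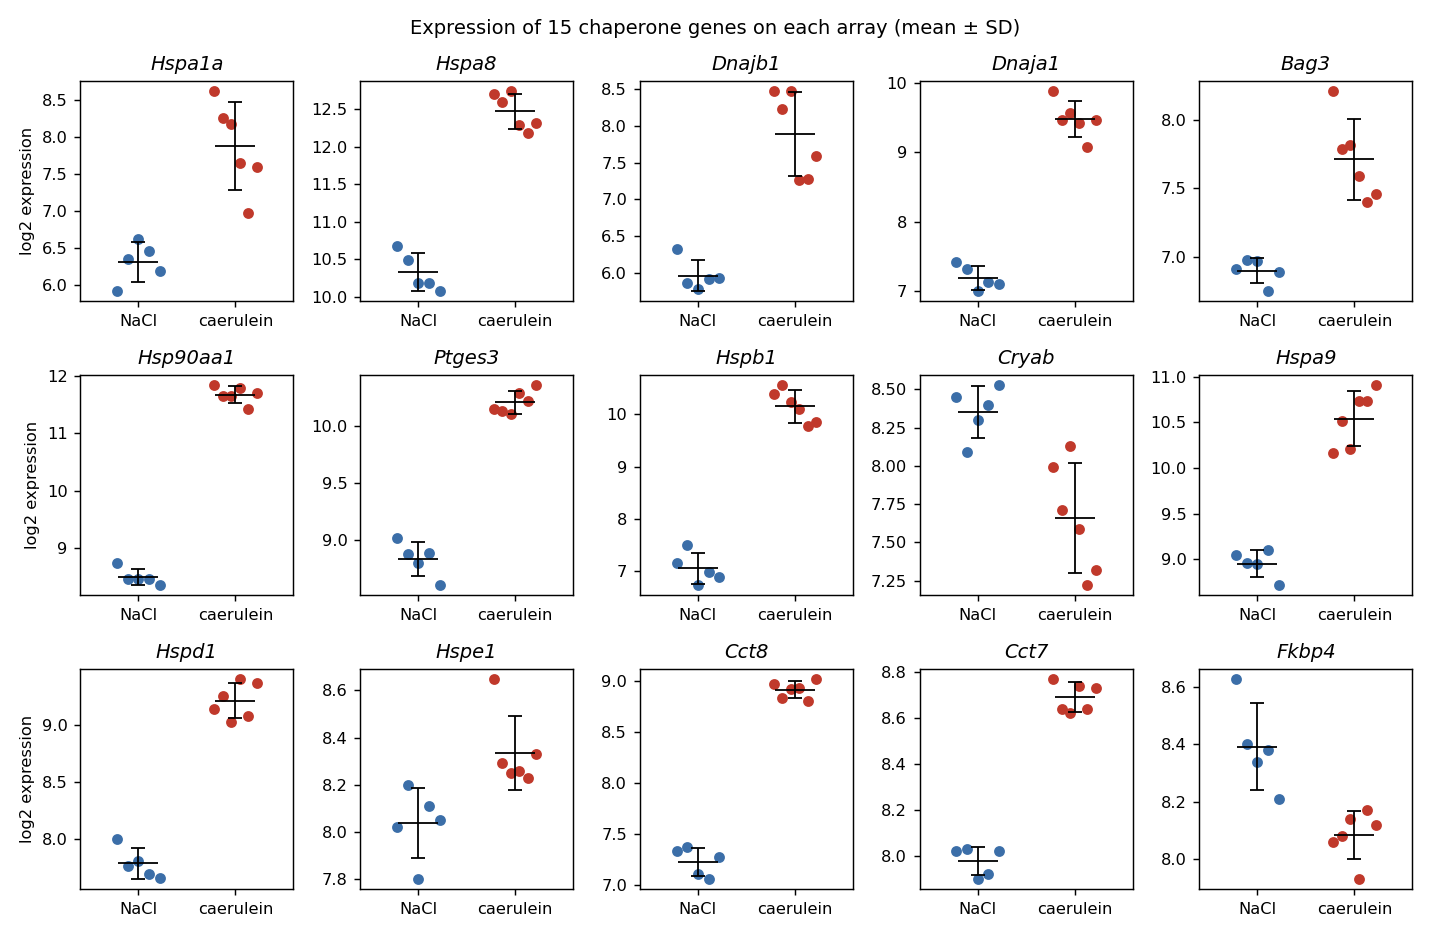
Log2 values of 15 chaperone genes in each of the 5 NaCl and 6 caerulein arrays, with the group mean and SD. Hsp90aa1, Hspb1, Hspa8 and Dnaja1 separate the groups widely, while the groups overlap for Cryab.

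The mitochondrial chaperones were uneven. Hspa9, or mortalin, the HSP70 that pulls proteins into the matrix, read 9.05, 8.96, 8.95, 9.10 and 8.72 in the NaCl arrays, and 10.16, 10.62 and 10.91 as the lowest, median and highest after caerulein. It rose 3.00-fold without overlap (difference 1.59, SE 0.14, adjusted p = 1.1e-06, limma). Hspd1, or HSP60, read 8.0, 7.76, 7.80, 7.69 and 7.65 in the NaCl arrays, and 9.03, 9.20 and 9.41 after caerulein. It rose 2.70-fold, also without overlap (difference 1.44, SE 0.09, adjusted p = 5.8e-08, limma), and its second probe set gave 1.74.

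Hspe1, or HSP10, is the lid of the HSP60 cage and shares the promoter shown above. It read 8.02, 8.20, 7.80, 8.11 and 8.05 in the NaCl arrays, and 8.23, 8.27 and 8.65 as the lowest, median and highest caerulein values, with replicate 1 the high array. The groups just failed to touch, and the rise was 1.23-fold (difference 0.30, SE 0.09, adjusted p = 0.0203, limma; second probe set 0.35). It was not past the threshold without NaCl replicate 3 (0.24, adjusted p = 0.0535), and it was -0.46 with the reference genes set equal and -0.01 after quantile normalisation.

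Every TRiC subunit measured among the members rose, 7 of 7, against 20.3% of all genes, with a median difference of 1.14. All caerulein values were above all NaCl values for each of them, against 16.7% of all genes. Cct8 had the largest difference, reading 7.33, 7.37, 7.11, 7.06 and 7.27 in the NaCl arrays and 8.80, 8.93 and 9.02 as the lowest, median and highest after caerulein (difference 1.69, SE 0.07, 3.22-fold, adjusted p = 2.6e-09, limma). Cct4 read 8.47, 8.39, 8.30, 8.26 and 8.18, against 9.47, 9.59 and 9.69 (difference 1.27, 2.41-fold). The arrays of each group were tight for both, and the gap between groups exceeded the spread within them.

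The next subunits were Cct3 (difference 1.18, SE 0.14) and Cct5 (1.14, SE 0.06). In Cct3 the NaCl arrays were spread, from 6.34 to 7.25, and the caerulein arrays were tight, from 7.86 to 8.09. Tcp1 (0.77), Cct7 (0.71) and Cct2 (0.69) rose by less than 2-fold. With the reference genes set equal, 4 of the 7 were higher, and Tcp1, Cct7 and Cct2 were at 0.02, -0.04 and -0.06, not past the threshold. The subunits form rings in equal amounts in the assembled complex, whereas the mRNA differences of these 7 ran from 0.69 to 1.69.

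To ask whether related chaperones changed unequally, the difference between a pair of genes was taken within each array, which cancels any shift of the whole array. Of 10 pairs, 7 passed (two-sided exact permutation test over the arrays, Benjamini-Hochberg over the pairs, adjusted p under 0.05). Each of the 7 had the smallest p the arrays allow, 0.00433, adjusted 0.00618, with 6 of 6 caerulein arrays beyond every NaCl array. The pairs were chosen with the genes' differences known, so these tests give the size of the inequality and its spread rather than a search.

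Within the classes, Hspb1 moved 14.0-fold against Cryab (change 3.81). Dnaja1 moved 2.35-fold against Dnaja2 (1.23), a change that rests on the probe set chosen for Dnaja1. The other Dnaja1 probe set rose by 0.84, less than the 1.05 of Dnaja2. Bag3 moved 2.05-fold against Bag1 (1.04). Hspd1 moved 2.20-fold against Hspe1 (1.14), the genes on either side of the stretch printed first above. Hsph1 against Hspa4 changed by 0.19 (exact p = 0.446).

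Between compartments, Hsp90aa1 moved 10.6-fold against Hsp90b1, the HSP90 of the ER (change 3.40). Hspa8 moved 2.3-fold against Hspa5, the HSP70 of the ER (1.20, or 0.79 without caerulein replicates 1 to 3). Dnajb1 moved 4.64-fold against the ER J-protein Dnajb9 (2.21). Hspa8 against mitochondrial Hspa9 changed by 0.56, which did not pass (exact p = 0.0606, adjusted 0.0722). This change depended on the caerulein arrays: it was 1.02 and passed without replicates 4 to 6 (exact test, adjusted p = 0.0446), and was 0.10 and did not pass without replicates 1 to 3. Hspa1a against Hspa8, a pair added after the values were seen, changed by -0.58 (exact p = 0.0649, adjusted 0.0722), and by -0.76 without NaCl replicate 1, where it passed (adjusted p = 0.0238).

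**Figure D4:**
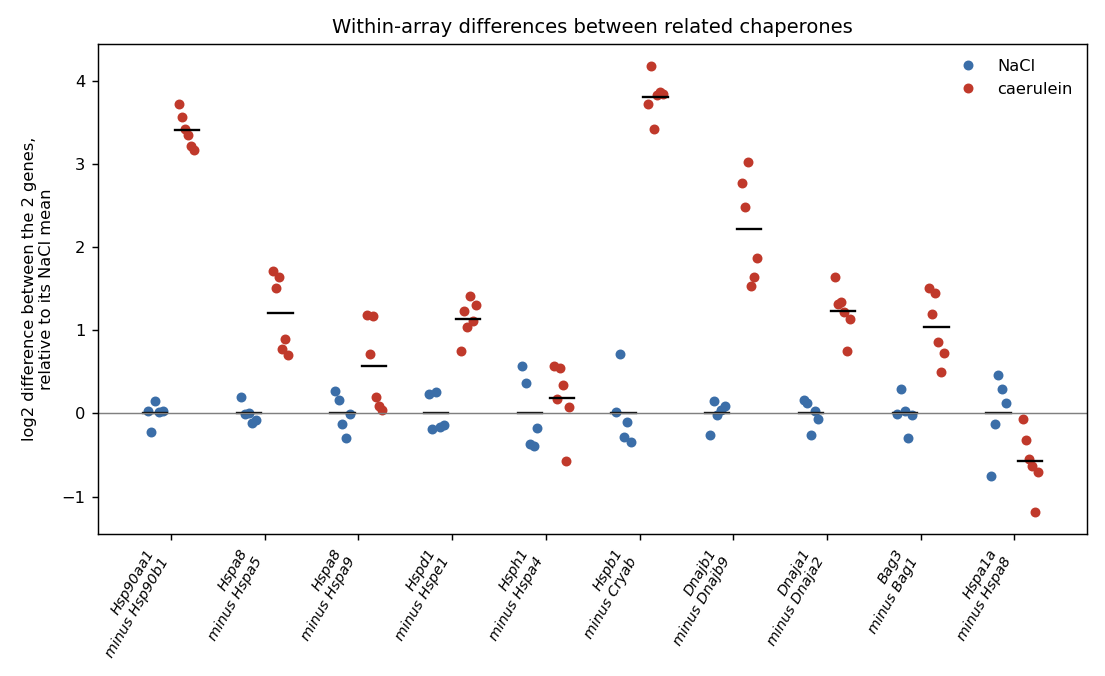
Within-array log2 differences of the 10 chaperone pairs, each array's value shown relative to the NaCl mean of its pair, with the group mean as a line. For 7 pairs all 6 caerulein arrays lie beyond the 5 NaCl arrays; the pairs Hspa8 and Hspa9, Hsph1 and Hspa4, and Hspa1a and Hspa8 overlap.

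The caerulein arrays were not uniform. For 9 of 38 members, replicates 1 to 3 all lay above replicates 4 to 6, against 8.29% of all genes: Hspa1a, Hspa8, Hspb1, Cryab, Dnaja1, Dnajb1, Dnajb2, Dnajb4 and Bag3. For 6 members, Hspa9, Ptges3, Stub1, Bag1, Cct2 and Cct4, they all lay below, against 9.40%. Dnajb1 read 8.47, 8.23 and 8.47 in replicates 1 to 3 and 7.27, 7.28 and 7.59 in replicates 4 to 6. Hspa9 went the other way, at 10.16, 10.51 and 10.21 and then 10.73, 10.73 and 10.91. This division was noticed in the values, the labels name no batch, and it was given no test. The mean of the macrophage markers was 6.07 to 6.38 in replicates 1 to 3 and 6.40 to 6.87 in replicates 4 to 6, with 3 of 15 markers all below in the first 3. The mean of 10 stellate cell and fibroblast markers was 6.96 to 7.24 and 7.28 to 7.64, with 6 of 10 all below. The part of either in these values was not tested.

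**Figure D5:**
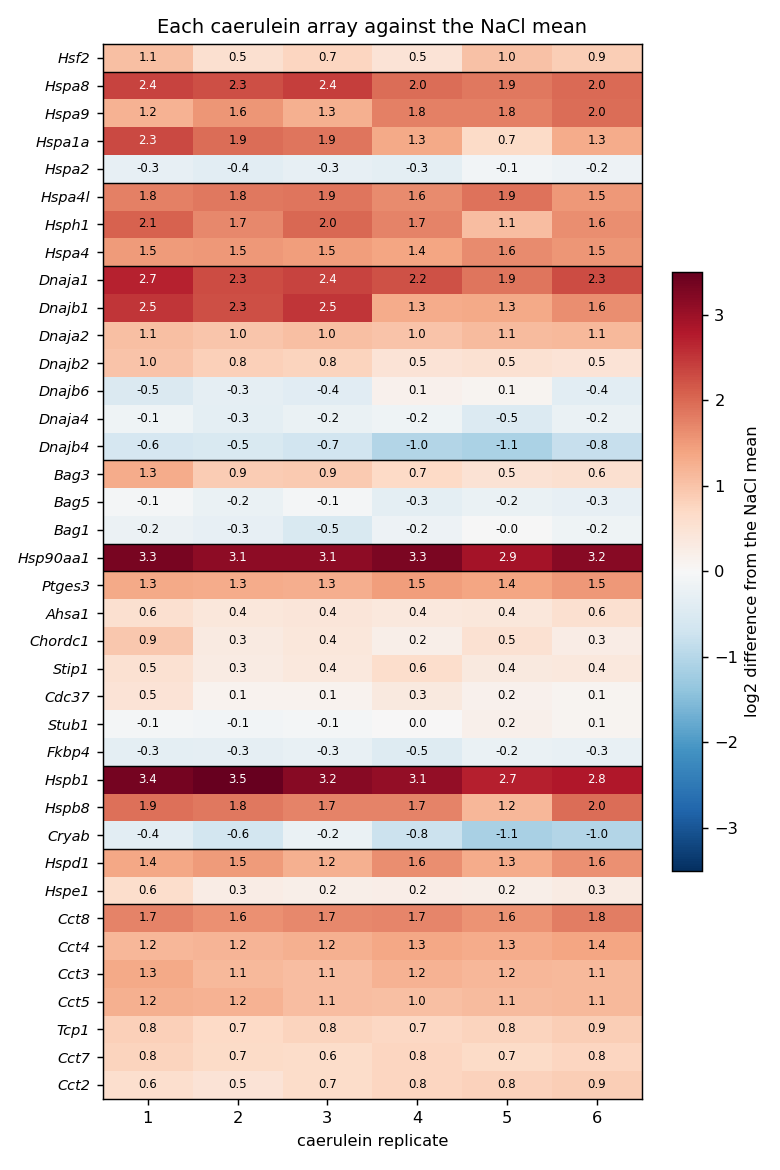
Each chaperone gene's log2 value in the 6 caerulein arrays, as the difference from the gene's NaCl mean (red higher, blue lower), ordered by class. Dnajb1, Hspa1a and Bag3 are higher in replicates 1 to 3 than in replicates 4 to 6, and Hspa9 shows the opposite.

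Other chaperone genes were taken from 5 lists, with 88 of 90 symbols measured. Of these 23 were higher, 28 lower and 37 did not pass, with a median difference of -0.05, so their shares were near those of all genes (20.3% higher and 34.3% lower). Among 15 other HSP70, heat shock factor and small heat shock genes, 1 was higher, Hspbp1 (0.48), and 9 were lower, with Hspa13 at -1.52, Hspb6 at -0.78 and Hspb2 at -0.49. Among 20 other J-proteins, not counting those in the mitochondrial and ER lists, 7 were higher and 5 lower. Dnajc5 (1.03), the J-protein of secretory vesicles, and Dnajc13 (1.02) were among the higher, and Dnajc12 (-1.36) was among the lower. Among 15 other mitochondrial chaperones and proteases, 2 were higher, Lonp1 (0.77) and Dnajc11 (0.65), and 6 were lower, such as Clpx (-1.26) and Dnajc19 (-0.83). With the reference genes set equal, 3 of the 88 were higher and 74 lower, when most of the array was also lower (17237 of 19938 genes).

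Among 25 other co-chaperones, mostly of HSP90 but with Bag2, Bag4 and Bag6 among them, 9 were higher and 6 lower. Tomm34 was at 1.21 and Nudcd2 at -0.73. Tomm70a, a receptor of the mitochondrial outer membrane that takes clients from HSP90, was at 0.92. Ppid, an isomerase of HSP90, was at 0.82. Among 13 further genes of TRiC, of prefoldin, which carries actin and tubulin to TRiC, and of related factors, 4 were higher and 2 lower. Cct6a, a further TRiC subunit, was at 1.05, while Cct6b, another, was at -0.11 and did not pass (adjusted p = 0.286, limma). The related factors Txndc9 and Pdcl3 were at 0.93 and 0.81, while Uri1 was at -0.63. Of the prefoldin subunits, Pfdn4 was higher (0.23), and Pfdn1, Pfdn2, Pfdn5, Pfdn6 and Vbp1 did not pass. Of 12 actin and tubulin genes, the clients of TRiC, 8 were measured. The counts were 7 up and 1 down past the threshold, at a median difference of 1.67 (5 up and 2 down with the reference genes set equal): Tubb6 was at 3.06, Actb, which is also among the reference genes, at 2.93 and Tubb5 at 2.06, and Tubb3 was at -0.24.

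Of 23 measured ER chaperones and folding enzymes, 13 were lower and 4 higher, against 34.3% and 20.3% of all genes, and the median difference was -0.61. Ero1b, the oxidase of secretory cells, was at -2.10, Dnajb11 at -1.57 and Sdf2l1 at -1.51, while Ero1a was at 1.46 and Hspa5 at 0.95 (adjusted p = 4.4e-05, limma). Hsp90b1 had a difference of -0.24 (adjusted p = 0.0908) and Dnajb9 one of -0.29 (adjusted p = 0.0997), neither past the threshold. Among the 14 acinar markers 6 were lower, 1 higher and 7 did not pass. Their median difference was -0.11, near that of all genes (-0.13), but the markers were uneven. For 10 of the 14, all caerulein values were below all NaCl values, against 20.6% of all genes. At least 2-fold lower were 3, against 1.44% of all genes. The lowest was Cckar, which encodes a cholecystokinin receptor, at -4.05, and Rbpjl was at -1.43. The part of the acinar markers in the ER values was not tested.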

How the data were processed

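Total RNA of 11 mouse pancreas samples was hybridised to Affymetrix arrays, 1 array each. The authors deposited log2 values. They come from RMA with the R packages oligo and limma, per the submitters' processing notes, and neither versions nor a genome build were given. In its usual form RMA subtracts background, equalises the probe distributions and summarises each probe set, which can compress changes. Detection calls were not analysed here, so a dim probe set may lie at background, and levels of different genes were not compared. Precision is limited by the number of arrays.

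Of 35556 probe sets, 21789 carried 1 symbol in the platform annotation, 1621 several and 12146 none listed; 21698 of the first matched RefSeq by Entrez identifier and 0 were renamed. The groups were compared with limma 3.58.1 (R 4.3.3; lmFit, eBayes, two-sided, no covariates), with Benjamini-Hochberg adjustment over all probe sets and a threshold of 0.05. The code was checked on data made with known changes. Differences are caerulein minus NaCl means on the log2 scale, and SE is that of the fit.

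Pair differences were tested by an exact permutation over all 462 arrangements of the arrays. Named were every member and both genes of each pair. From each other list except the marker lists, up to 3 genes past the threshold with the largest difference were named. Up to 2 past the threshold against the list's main direction were added. Further relatives of the members among the HSP70, heat shock factor, BAG, TRiC and prefoldin genes were also named. Of the marker genes, only some were named. The members, lists and pairs were chosen with earlier results of these data known. Of 13 pairs listed in all, 1 of them added later, 10 held only measured genes, and none of the lists was tested as a set. Alternatives covered scaling, a filter on dim probe sets, a replicate block and leaving out arrays.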

Additional observations from a re-analysis of the deposited data

Results flagged for a closer look

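In 6 of the 76 groups of arrays examined (38 genes, each in the NaCl and the caerulein group), 1 array stood farther from the rest than Dixon's criterion allows. Chance alone gives about 1 in 20 groups. Hsp90aa1 read 8.75 in NaCl replicate 1, with the next array at 8.47, and Dnajb1 read 6.33 in the same array, with the next at 5.93. Both of these lie toward the caerulein values but far below them. Dnajb4 read 6.14 in NaCl replicate 4, next 5.73, and Cdc37 read 7.14 in NaCl replicate 5, next 7.49. In the caerulein group, Hspb8 read 7.87 in replicate 5, next 8.44, and Hspe1 read 8.65 in replicate 1, next 8.33.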

How the results depend on the processing

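Of 835 values of the 38 members over 22 alternatives, 790 kept their direction and side of the threshold, 14 lost the call, 12 gained one and 19 changed sign; 21 members kept both under every alternative run. Counts of members higher ran from 27 to 28 and lower from 5 to 6 when 1 array was left out, and 7 to 9 pairs passed; Hspa8 against Hspa9 passed the exact test without NaCl replicate 1 (0.63, adjusted p = 0.0423) or caerulein replicate 6 (0.67, 0.0496), and after quantile (0.65, 0.0325) or loess normalisation (0.64, 0.0271). Setting the reference genes equal gave 18 higher and 14 lower, with Stub1 at -0.75, Cdc37 -0.54, Hspe1 -0.46, Stip1 -0.34, Chordc1 -0.31, Ahsa1 -0.30, Dnajb2 -0.072, Cct2 -0.062 and Cct7 -0.044; the construction moves every gene by the same 0.76. That scaling made 95.0% of called probe sets lower, against 62.9% in the deposited values, 72.1% after equalising the 75th percentile, 56.3% after quantile and 46.4% after loess normalisation, and 54.1% without the dimmer probe sets. Quantile normalisation gave Stub1 -0.30, Cdc37 -0.052 and Hspe1 -0.012; Stub1, near 0 in the deposited values, was also -0.17 after loess, -0.051 with the 75th percentile, -0.085 without caerulein replicates 4 to 6 together, between -0.029 and 0.035 with 1 array left out, and -0.008 with the replicate block. Same-numbered arrays of the groups did not deviate together (correlations -0.05 to 0.06), and with replicate number as a block, 28 members were higher and 4 lower, Dnaja4 (-0.28, adjusted p = 0.0606, limma) being lost. Bag1 gained a call as lower under 8 alternatives, and Hspe1 lost it after loess (0.12, adjusted p = 0.324). Chosen after seeing the data, leaving out caerulein replicates 1 to 3 together left 3 members lower, the change of Hsph1 against Hspa4 at -0.05 and 0 pairs past the threshold: 7 pairs had the smallest exact p that 3 arrays allow, 0.0357, adjusted to 0.051. Leaving out replicates 4 to 6 gave 8 pairs at that exact p, adjusted to 0.0446, so all 8 passed, the further one being Hspa8 against Hspa9. The causes of the other changes were not tested.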
